A study of Mus musculus with 4 samples.

Results

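A set of 10 genes of the skeletal muscle triad and the muscle acetylcholine receptor was followed in right ventricles of adult mice, from Ezh2-deficient and from wild-type hearts. The members were the rows of the deposited read table whose gene name was Ryr1, Cacna1s, Cacng1, Jph1, Sypl2, Atp2a1, Casq1, Chrna1, Chrnb1 or Chrnd, and all 10 were found among 29595 rows. The series holds 4 libraries from ventricles of adult mice on a mixed C57BL/6 background, 2 from Ezh2-deficient hearts (mutant 1 and mutant 3) and 2 from wild-type hearts (wild type 1 and wild type 2). Ezh2 is the enzyme of Polycomb repressive complex 2, which methylates histones and keeps genes silent. The part of Ezh2 that was removed, the cells it was removed from, the driver, the age in weeks and the sex are not stated in the labels.

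In skeletal muscle, the triad is the junction where a transverse tubule of the surface membrane meets the sarcoplasmic reticulum on both sides. Depolarisation moves the voltage sensor of the tubule, which opens the ryanodine receptor of the reticulum, and the calcium released there starts contraction before a calcium pump returns it to the store. Heart muscle handles calcium largely with other genes of the same families (Ryr2, Cacna1c, Jph2, Atp2a2 and Casq2). The muscle acetylcholine receptor is the ion channel of the motor end plate, where a nerve signals to a skeletal fibre. Ventricular myocytes have no such end plate and respond to acetylcholine through the muscarinic receptor Chrm2.

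Total reads per library ran from 18177642 to 23853394. Sets of 4 values below are always in the library order mutant 1, mutant 3, wild type 1, wild type 2. Ezh2 itself had 73, 70, 77 and 67 reads, so that row does not separate the groups. Y-linked genes and Xist followed genotype (Ddx3y had 754, 659, 2 and 2 reads), so genotype and sex cannot be told apart in any comparison given here. The defining ventricular markers were abundant, with a sum of 40110 to 54770 CPM over 8 genes. CPM is a gene's reads scaled to a common library total, here after TMM scaling. The libraries had been treated with a duplex-specific nuclease, which removes abundant transcripts in part, so levels of different genes are not proportional to their RNA. In bulk tissue, fewer cells of a type and less RNA per cell cannot be told apart.

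The 10 genes did not move as a block. Sypl2, Casq1 and Chrna1 stood higher in both mutants than in both wild types. So did Ryr1 and Cacng1 after scaling, but mutant 3 and wild type 1 had equal read counts there (3 and 3, and 1 and 1). Of all rows tested, 22.3% had both mutants above both wild types and 22.4% had both below. Among the 6 members tested, 2 lay above and 1 below, and Chrna1, Ryr1 and Cacng1 were not tested. Ryr1 and Atp2a1 were high in mutant 1 alone, while Cacng1 was close to silent and Chrnd had no read. Cacna1s, Jph1 and Chrnb1 had fitted ratios of mutant to wild type of 0.739 to 0.830, and none of the 3 passed the test. In edgeR's quasi-likelihood test over 16128 rows, 0 of the 6 members tested passed an adjusted p of 0.05, against 0.13% of all rows (0.105% higher and 0.0248% lower in the mutants). With no adjustment, 3 members (Sypl2, Casq1 and Atp2a1) were higher at p under 0.05 and 0 were lower, against 6.49% and 4.38% of all rows. The members were chosen with earlier results of these data known, so these counts do not test the set. Sypl2 passed the filter on low counts through the mutant libraries alone, and the Atp2a1 value rests on mutant 1. DESeq2 called 1 member, Sypl2, against 1.09% of the rows it tested. The other 4 members were kept out of the test by its filter on low counts.

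**Figure D1:**
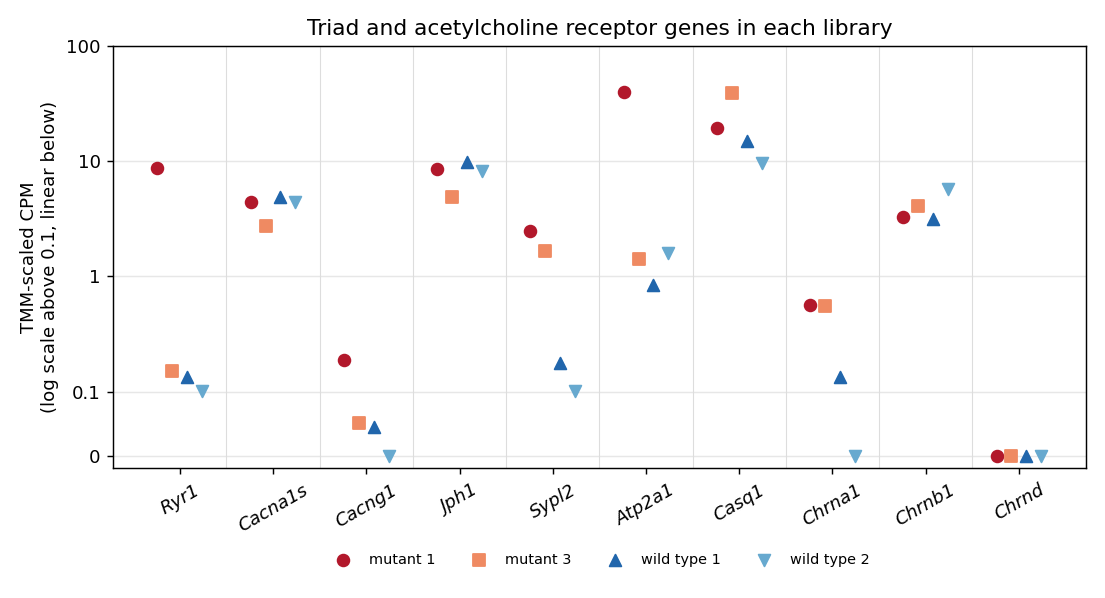
TMM-scaled CPM (log scale above 0.1, linear below it) of the 10 genes, 1 point per library. Sypl2, Casq1 and Chrna1 have both mutants above both wild types, while Ryr1 at 8.77 CPM and Atp2a1 at 39.6 CPM have mutant 1 far above the other 3 libraries.

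Sypl2 encodes mitsugumin 29, a synaptophysin-like membrane protein of the triad. Its row (mm9, chr3:108015184-108029517, minus strand) had 53, 33, 4 and 2 reads, or 2.47, 1.67, 0.178 and 0.101 CPM. The mutants were well above the wild types and close to each other. The mean was 2.07 ± 0.566 CPM (SD, n = 2) against 0.139 ± 0.0548, a log2 fold change of 3.82 ± 0.62 (SE), with an adjusted p of 0.0837 in edgeR and 0.00948 in DESeq2. Without mutant 1, in a fit with a single mutant library, the log2 fold change was 3.56. Over the alternatives that kept all 4 libraries, the adjusted p ran from 0.000977 (edgeR without a filter) to 0.175 (limma-voom). Each mutant on its own was above the pooled wild types, by 17.4 times in mutant 1 (95% counting interval 7.51 to 49.7) and 11.8 times in mutant 3 (4.89 to 34.5). Such intervals cover counting error only, since reads copied by PCR are not independent molecules. Sypl2 passed the filter on low counts through the mutant libraries alone. Another row of the table, named mitsugumin29, lies on the same strand inside Sypl2 and had 15, 10, 0 and 0 reads. It may hold some of the same reads. With the wild-type group set at a floor of 3 reads, its ratio over the groups was 8.57, with a lower 95% counting limit of 5.55.

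Casq1 encodes skeletal calsequestrin, the calcium-binding protein of the reticulum lumen. It had 414, 770, 334 and 190 reads (mm9, chr1:174140471-174149972, minus strand), or 19.3, 39.0, 14.9 and 9.56 CPM. Here mutant 3 was the highest library, and mutant 1 was close to wild type 1. The group means were 29.2 ± 13.9 and 12.2 ± 3.76 CPM, and the log2 fold change was 1.25 ± 0.37 (edgeR adjusted p = 0.301). The groups did not overlap, as was true in this direction of 22.3% of all tested rows. Without mutant 1 the log2 fold change was 1.72, and without mutant 3 it was 0.70, each in a fit with a single mutant library. Over the alternatives that kept all 4 libraries, the edgeR adjusted p ran from 0.0225 without a filter to 0.308 without X, Y, mitochondrial and abundant rows.

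Chrna1 encodes the ligand-binding alpha subunit of the muscle acetylcholine receptor. Its reads numbered 12, 11, 3 and 0 (mm9, chr2:73401338-73418363, minus strand), or 0.560, 0.558, 0.134 and 0 CPM. Both mutants were above both wild types at a very low level. Over the groups this was 23 reads against 3, a ratio of 7.89 (95% counting interval 2.38 to 41.0). It was too low for edgeR's filter, and DESeq2 gave an adjusted p of 0.753. A row on the opposite strand, AK029663, overlaps Chrna1 with 1, 2, 0 and 0 reads.

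Atp2a1 encodes SERCA1, the calcium pump of fast skeletal fibres. It had 848 reads in mutant 1 and 28, 19 and 32 in mutant 3, wild type 1 and wild type 2 (mm9, chr7:133589374-133606587, minus strand), or 39.6, 1.42, 0.846 and 1.61 CPM. Mutant 3 lay between the wild types. Mutant 1 was 32.8 times the pooled wild types (95% counting interval 24.8 to 44.5) and 27.9 times mutant 3 (19.1 to 42.2), while mutant 3 was 1.18 times the wild types (0.716 to 1.91). The log2 fold change between groups of 4.07 ± 1.24 did not pass (edgeR adjusted p = 0.311), and without mutant 1 it was 0.24. Rabep2, on the opposite strand, overlaps the end of Atp2a1 over 617 bases and had 517, 126, 103 and 134 reads, again highest in mutant 1. Since no source used here gives the strand setting, reads of this pair cannot be told apart.

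Ryr1 encodes the calcium release channel of the skeletal triad. It had 188 reads in mutant 1 and 3, 3 and 2 in the other 3 libraries (mm9, chr7:29788359-29910170, minus strand), or 8.77, 0.152, 0.134 and 0.101 CPM. Mutant 1 was 74.3 times the pooled wild types (95% counting interval 31.3 to 231), and mutant 3 was 1.29 times (0.200 to 6.62). With 3 or fewer reads in all libraries but mutant 1, it did not pass edgeR's filter, and DESeq2 gave an adjusted p of 0.353. In the authors' deposited table, the ratio of mutant 1 to mutant 3 was 68.9 for Ryr1 and 33.3 for Atp2a1. For both genes the distance to the wild types rests on 1 library.

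**Figure D2:**
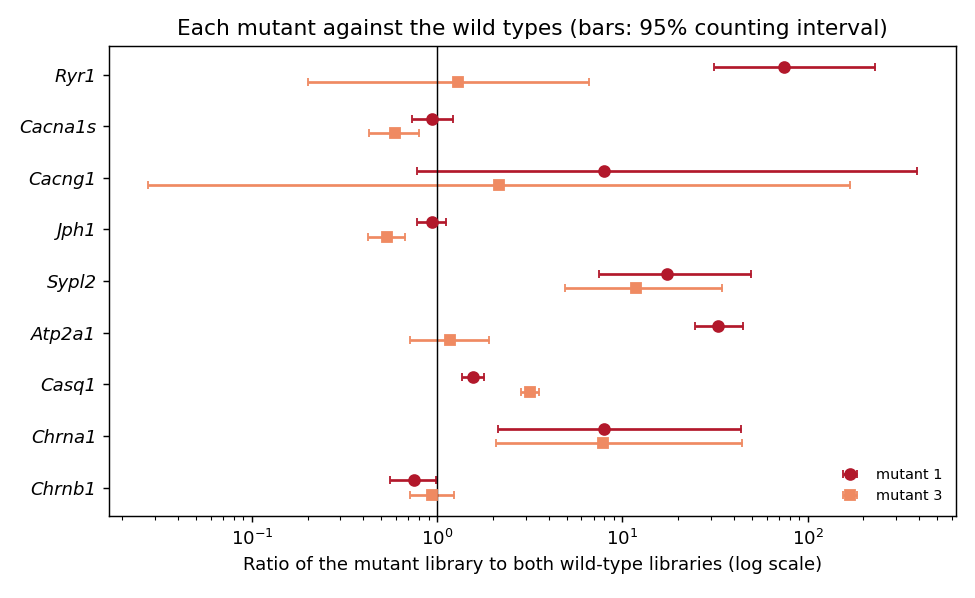
Ratio of mutant 1 and of mutant 3 to the pooled wild types (log scale) for the 9 genes with a read in both groups, with 95% counting intervals as bars and a line at 1. The whole interval lies above the line in both mutants for Sypl2, Casq1 and Chrna1 and in mutant 1 for Ryr1 and Atp2a1, and below it in mutant 3 for Cacna1s and Jph1 and, narrowly, in mutant 1 for Chrnb1.

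Promoter windows of these 5 genes are shown because they were the members that stood high in at least 1 mutant. Each runs from 250 bases before to 50 bases after the start of the gene, from RefSeq on GRCm38.p6, a later build than that of the read table. Capitals mark CAGCTG, an E-box of the form that myogenic regulatory factors bind.
Sypl2 (chr3:108226550-108226849, minus strand): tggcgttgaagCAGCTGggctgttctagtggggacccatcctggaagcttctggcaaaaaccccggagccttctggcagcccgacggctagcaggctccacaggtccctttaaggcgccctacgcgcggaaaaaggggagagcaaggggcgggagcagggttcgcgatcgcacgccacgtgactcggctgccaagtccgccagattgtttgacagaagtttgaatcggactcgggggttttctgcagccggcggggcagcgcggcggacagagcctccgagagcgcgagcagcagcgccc
Casq1 (chr1:172219846-172220145, minus strand): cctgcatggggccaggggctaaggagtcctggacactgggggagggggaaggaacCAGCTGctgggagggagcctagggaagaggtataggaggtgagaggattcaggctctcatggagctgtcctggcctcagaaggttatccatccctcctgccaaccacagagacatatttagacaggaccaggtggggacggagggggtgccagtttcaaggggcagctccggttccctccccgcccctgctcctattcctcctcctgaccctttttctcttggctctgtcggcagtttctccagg
Chrna1 (chr2:73580289-73580588, minus strand): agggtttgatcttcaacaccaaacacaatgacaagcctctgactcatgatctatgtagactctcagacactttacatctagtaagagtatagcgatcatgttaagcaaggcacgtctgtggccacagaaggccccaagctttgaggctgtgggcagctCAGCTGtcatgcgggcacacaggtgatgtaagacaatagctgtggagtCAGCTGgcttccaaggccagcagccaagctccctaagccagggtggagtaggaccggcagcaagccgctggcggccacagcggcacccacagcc
Atp2a1 (chr7:126463024-126463323, minus strand): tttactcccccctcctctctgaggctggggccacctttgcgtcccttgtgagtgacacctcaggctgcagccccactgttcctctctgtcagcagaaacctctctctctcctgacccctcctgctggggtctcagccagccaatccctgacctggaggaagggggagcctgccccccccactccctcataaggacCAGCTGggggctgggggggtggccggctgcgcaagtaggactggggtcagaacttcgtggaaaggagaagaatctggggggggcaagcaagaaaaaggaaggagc
Ryr1 (chr7:29125102-29125401, minus strand): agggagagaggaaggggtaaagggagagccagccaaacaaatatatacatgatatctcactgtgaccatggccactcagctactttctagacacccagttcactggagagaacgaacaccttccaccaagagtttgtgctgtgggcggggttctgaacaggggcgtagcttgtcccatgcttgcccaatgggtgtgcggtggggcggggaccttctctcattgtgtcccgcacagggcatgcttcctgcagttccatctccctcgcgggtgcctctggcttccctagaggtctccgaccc
CAGCTG reads the same on both strands and is one form of the wider E-box CANNTG, so each CAGCTG is also counted there. In the Chrna1 window it stood 92 and 44 bases before the start, in Atp2a1 55 bases, in Casq1 195 bases and in Sypl2 239 bases before it, and the Ryr1 window held none. Of the 10 genes, 7 had a promoter entry. The motif was in 5 of those 7, the Cacna1s window included, and in 16.3% of 32851 windows of the same length. CANNTG was in 6 of 7 windows and in 72.3% of all. The Cacna1s window held both motifs although its reads were not higher in the mutants, and the Ryr1 window held neither although its reads were high in mutant 1.

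Cacna1s encodes the voltage sensor of the skeletal tubule. It had 94, 54, 109 and 88 reads (mm9, chr1:137949478-138016399, plus strand), or 4.39, 2.74, 4.85 and 4.43 CPM. Both mutants were below both wild types, mutant 1 only just, and mutant 3 was the lowest library, and the log2 fold change was -0.38 ± 0.33 (edgeR adjusted p = 0.711). Cacng1, the gamma subunit of the same channel, had 4, 1, 1 and 0 reads, too few to show a difference (ratio 5.14 over the groups, 95% counting interval 0.576 to 243).

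Jph1 encodes junctophilin 1, which ties the reticulum to the tubule. It had 182, 96, 221 and 164 reads (mm9, chr1:16987545-17087879, minus strand), or 8.49, 4.87, 9.84 and 8.25 CPM. Mutant 1 lay between the wild types and mutant 3 was the lowest library, with a log2 fold change of -0.44 ± 0.33 (edgeR adjusted p = 0.664). For both Cacna1s and Jph1, mutant 3 was below the pooled wild types by more than counting error, at 0.588 times (0.427 to 0.799) and 0.535 times (0.424 to 0.671), while the interval of mutant 1 included 1, at 0.943 times (0.729 to 1.21) and 0.934 times (0.779 to 1.12).

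The other receptor subunits differed among themselves. Chrnb1, the beta subunit, had 70, 81, 71 and 114 reads (mm9, chr11:69597538-69609445, minus strand), or 3.27, 4.11, 3.16 and 5.74 CPM, and both mutants lay between the wild types. The log2 fold change was -0.27 ± 0.37 (edgeR adjusted p = 0.829). Chrnd, the delta subunit, had 0 reads in each library, which allows up to 0.152 CPM in the library of the highest limit (3 reads). Chrne, the adult epsilon subunit, had 7, 1, 0 and 0 reads, so both mutants were above both wild types as for Chrna1, nearly all of it in mutant 1. With the same floor of 3 reads for the wild-type group, the Chrne ratio over the groups was 2.74, with a lower 95% counting limit of 1.18. Mutant 3, with 1 read, was itself below that floor. Chrng, the fetal gamma subunit, had 0, 1, 0 and 0 reads. Of the 5 subunits of the muscle receptor, only alpha and beta thus had more than 7 reads in any library.

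The skeletal genes were minor partners of their cardiac or broadly expressed relatives in all libraries. Shares of the reads of a pair depend on no scaling between libraries. Ryr1 took 1.09% of the reads of Ryr1 and Ryr2 in mutant 1 (95% Clopper-Pearson interval 0.943 to 1.26) and 0.0228%, 0.0128% and 0.00867% in the other 3 libraries. Atp2a1 took 0.925% of the reads of Atp2a1 and Atp2a2 in mutant 1 (0.864 to 0.989) and 0.0359%, 0.0121% and 0.0251% in the others. In both pairs the other 3 libraries lay far below mutant 1.

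Casq1 made up a larger share, at 5.59%, 10.5%, 3.65% and 2.99% of the reads of Casq1 and Casq2. Divided by transcript length, the Casq1 share was 7.57%, 13.9%, 4.98% and 4.10%. Sypl2 took 10.5%, 6.51%, 1.08% and 0.400% of the reads of Sypl2 and its broadly expressed relative Sypl. For Ryr1, Atp2a1, Casq1 and Sypl2 both mutants were above both wild types in share, but mutant 3 only narrowly for Ryr1 and Atp2a1. Its 95% intervals there, 0.00471% to 0.0667% for Ryr1 and 0.0239% to 0.0519% for Atp2a1, included the share of wild type 2. For Atp2a1, mutant 3 had 28 reads against 32 in wild type 2, with Atp2a2 at 77993 against 127553. The shares of Cacna1s in Cacna1s and Cacna1c (2.66% to 3.38%) and of Jph1 in Jph1 and Jph2 (2.70% to 4.43%) overlapped between the groups.

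An exact two-sided permutation test over the 4 libraries cannot give a p below 0.333, and it gave 0.333 for those 4 pairs (0.5 adjusted over 6 pairs), 0.667 for Cacna1s and 1.0 for Jph1. The relatives themselves did not pass either. Ryr2 had 17016, 13134, 23482 and 23062 reads (log2 fold change -0.60 ± 0.24, edgeR adjusted p = 0.440), with both mutants below both wild types. Atp2a2, the cardiac pump, had 90836, 77993, 156622 and 127553 reads (-0.71 ± 0.29, adjusted p = 0.428). Casq2 had 6998, 6583, 8812 and 6155 (-0.09 ± 0.23, adjusted p = 0.918).

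**Figure D3:**
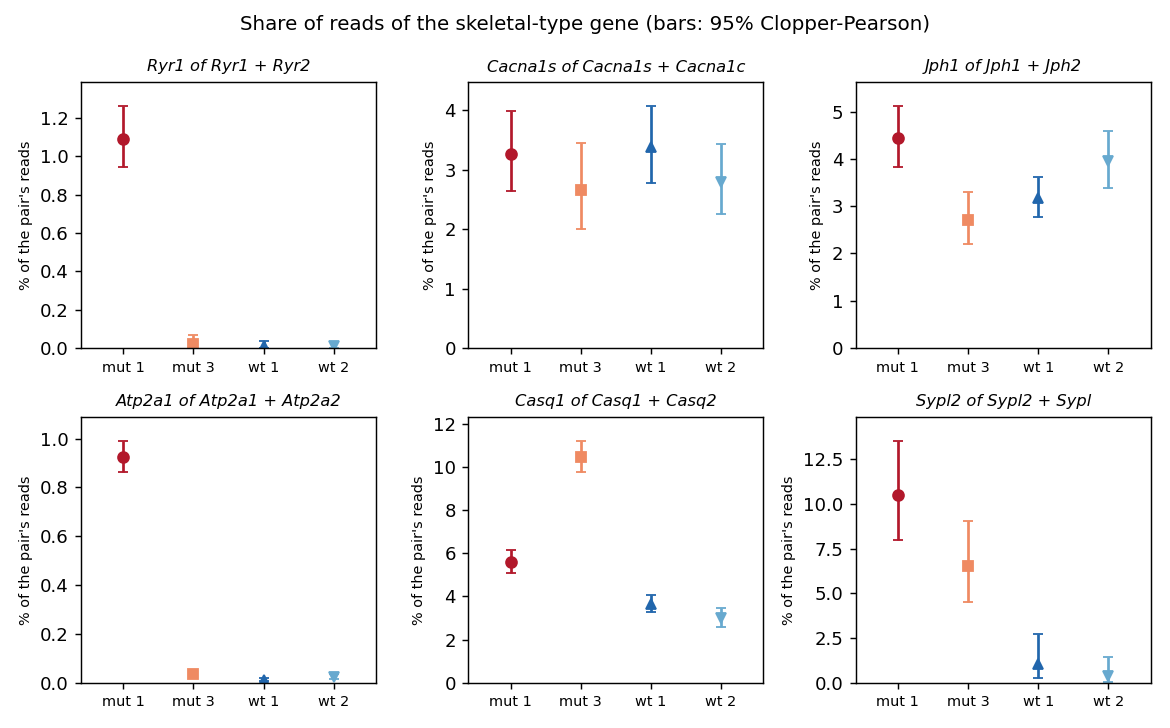
Percent of the reads of each pair that fell on the skeletal-type gene, 1 point per library with its 95% Clopper-Pearson interval. The vertical scales differ between panels, each starting at 0. The Ryr1 and Atp2a1 shares stand up in mutant 1 only, and the Casq1 and Sypl2 shares in both mutants.

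Of 36 listed partner genes of the triad, 34 were tested and 0 passed in edgeR over all rows or in DESeq2. With no adjustment, 4 of the 34 were higher and 3 lower at p under 0.05, beside 6.49% and 4.38% of all rows. Their median log2 fold change was -0.07, against 0.00 over all rows. Jsrp1, which encodes a reticulum protein that binds the voltage sensor, had the smallest p and was highest in mutant 1, with 45, 15, 2 and 2 reads (log2 fold change 3.84 ± 0.83, edgeR adjusted p = 0.175). Like Sypl2, it passed the filter on low counts through the mutant libraries alone. Bin1, which shapes transverse tubules, had 353, 176, 178 and 111 reads (0.91 ± 0.35, adjusted p = 0.410). Ryr3, the third ryanodine receptor, had 69, 44, 15 and 30 (1.33 ± 0.49, adjusted p = 0.386). Pvalb, the cytosolic calcium buffer of fast fibres, followed Atp2a1 with 256, 5, 10 and 9 reads. Scn4a, the sodium channel of skeletal muscle, went the other way with 359, 188, 545 and 461 reads (-0.85 ± 0.29, adjusted p = 0.361). Stac3, the adaptor that Cacna1s needs at the triad, had 20, 12, 5 and 8 reads. Among the 6 genes of smallest p, Jsrp1, Bin1 and Ryr3 thus had both mutants above both wild types, Scn4a and Atp2a2 had both below, and Pvalb was high in mutant 1 alone. Genes picked by p in these libraries are likely to separate the groups. Over the 34 tested partners, 8 had both mutants above both wild types and 10 had both below, beside 22.3% and 22.4% of all rows.

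Of 33 listed genes of the neuromuscular junction and acetylcholine signalling, 20 were tested and 0 passed in edgeR or in DESeq2. With no adjustment, 1 of the 20 was higher and 3 were lower at p under 0.05, beside the same 6.49% and 4.38% of all rows, and the median log2 fold change was -0.07. Ache, the enzyme that breaks down acetylcholine, had the smallest p, with 64, 71, 23 and 25 reads (log2 fold change 1.53 ± 0.37, edgeR adjusted p = 0.225). Both mutants exceeded both wild types and were close to each other. The end-plate organisers did not show this: Rapsn, which clusters receptors, had 213, 199, 288 and 191 reads, Dok7 had 259, 220, 321 and 190, and Musk had 3, 4, 1 and 5. Lrp4, the agrin receptor, had 167, 139, 236 and 267 (-0.69 ± 0.26, adjusted p = 0.392). Chrna2, a neuronal-type alpha subunit, had 17, 22, 38 and 50 (-1.14 ± 0.46, adjusted p = 0.433), with both mutants below both wild types. Lama4, a laminin chain, had 1360, 1275, 2149 and 1727 reads (-0.51 ± 0.20, adjusted p = 0.421), and Sntb1, a syntrophin, had 29, 24, 29 and 86 (adjusted p = 0.533). Chat, which makes acetylcholine, had no read in any library.

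Several markers of skeletal fibres were high in the same libraries. Of 12 fast-fibre markers, 7 were more than 5 times as high in mutant 1 as in every other library: Tnnt3, Tnni2, Tnnc2, Mylpf, Myh2, Actn3 and Pvalb. Tnnc2, the fast troponin C, had 759, 3, 2 and 0 reads, and Tnnt3 had 1516, 20, 8 and 5. Other fast-fibre markers went another way. Myl1, a fast myosin light chain, had 422, 1212, 163 and 132 reads and was highest in mutant 3. Myh4, a fast myosin heavy chain, had 951, 655, 224 and 238, and Mybpc2 had 501, 520, 464 and 182. Of the 12, DESeq2 called Myl1 and Myh4 (1.09% of all rows it tested), neither of them high in mutant 1 alone. In edgeR 0 of the 11 tested passed (0.13% of all rows), with 7 higher at an unadjusted p under 0.05 (6.49% of all rows). Of these 7, Tnnt3, Tnni2, Mylpf, Myh2 and Pvalb were high in mutant 1 alone, and Tnnt3 passed the filter on low counts through the mutant libraries alone. The part of the fast-fibre markers in the Ryr1 and Atp2a1 values was not tested. The summed level of all 12 fast-fibre markers was 959, 897, 1060 and 821 CPM, since Eno3, which the heart also expresses, makes up most of it.

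That pattern was rare in the table. With a bar of 5 times and at least 50 reads, both chosen after values had been seen, 12 of 12717 rows stood out in mutant 1, 2 in mutant 3, 0 in wild type 1 and 1 in wild type 2. Ryr1 and Atp2a1 were among the 12, with the 7 fast-fibre markers, Gdpd3, Myoz1 and AK035006, a row that overlaps Myh2.

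Slow-fibre markers were high in both mutants rather than in mutant 1 alone, in 3 of 5 cases. Tnni1, the slow troponin I, had 70, 45, 1 and 4 reads, and Tnnt1, the slow troponin T, had 1815, 869, 299 and 226. DESeq2 called 3 of the 5 (1.09% of all rows) and edgeR 0, with 3 higher at an unadjusted p under 0.05 there (6.49% of all rows). Of these 3, Tnni1 and Mybpc1 (110, 30, 3 and 6 reads) passed edgeR's filter on low counts through the mutant libraries alone. Their summed level was 152 and 119 CPM in the mutants and 39.0 and 79.9 CPM in the wild types. Myh7b made up much of it, at 56.9, 69.4, 23.4 and 66.4 CPM, and overlapped between the groups, as did Myl6b. Of 6 myogenic and satellite cell genes, Myf6 and Pax7 were at 0 in all libraries, and the 6 together had 7, 5, 5 and 3 reads. Of 4 listed genes of embryonic or regenerating muscle, Myh8 had 210, 56, 23 and 30 reads. DESeq2 called it (adjusted p = 0.0212, against 1.09% of all rows) and edgeR did not (adjusted p = 0.235). Myh3 had 15, 16, 33 and 11 reads, and Mymk and Chrng had at most 1 read in any library.

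Atrial markers also moved with genotype and differed between the wild types. All 5 had both mutants above both wild types, beside 22.3% of all rows, with a summed level of 3467 and 3104 CPM in the mutants and 441 and 192 CPM in the wild types. Nppa makes up most of this sum and was the marker that passed in edgeR. Myl7 had 1658, 1218, 665 and 54 reads. Casq1 and Chrna1 were likewise lowest in wild type 2, and Sypl2 had 4 and 2 reads in the wild types. The part of atrial tissue in the Sypl2, Casq1 and Chrna1 values was not tested.

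**Figure D4:**
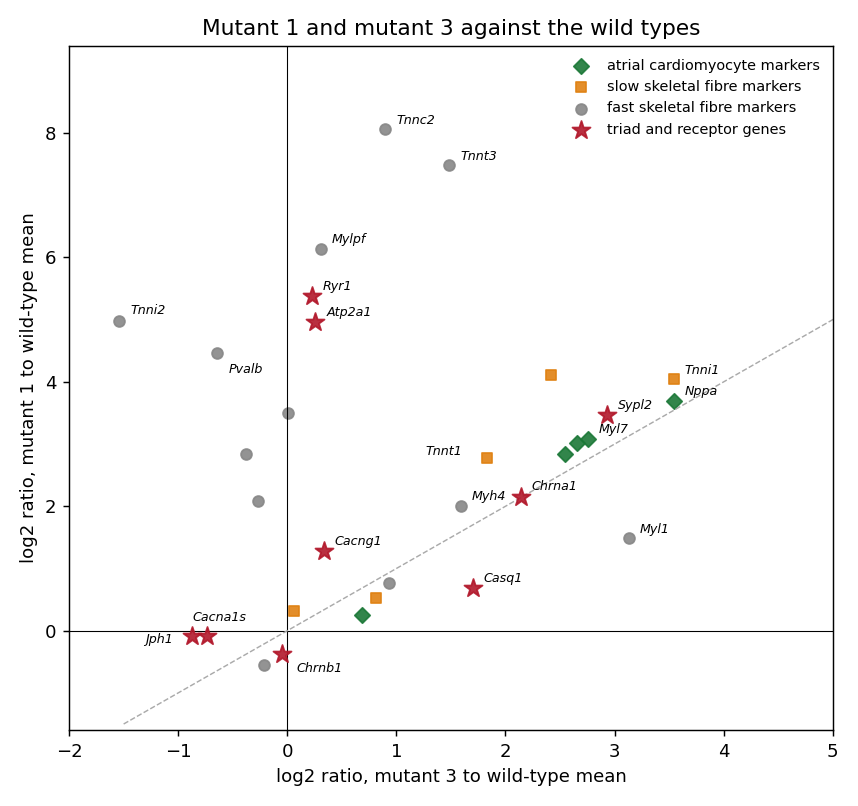
log2 ratio of mutant 3 (horizontal) and of mutant 1 (vertical) to the mean of the wild types, with a prior count of 2 reads, for 9 of the 10 genes (Chrnd has no read) and for markers of fast fibres, slow fibres and atrial myocytes. The dashed line marks equal ratios. Ryr1 and Atp2a1 lie high and near 0 on the horizontal axis, as Mylpf does, while Sypl2 and Chrna1 lie close to the dashed line beside Tnni1, Nppa and Myl7.

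Over the 4 libraries, the rows most like each variable member were taken by the distance between mean-centred log2 CPM, for the tested members that spanned at least 2 on that scale, among 11229 candidate rows. With 4 libraries this describes shape only. Atp2a1 was nearest to Gdpd3 (413, 29, 16 and 21 reads; distance 0.809), Pvalb (distance 0.959) and Tnni2 (682, 5, 21 and 18 reads; distance 1.68). Gdpd3 lies on the same chromosome (mm9, chr7:133909928-133919159). Sypl2 was nearest to Myot, a Z-disc gene (1418, 1247, 239 and 139 reads; distance 0.462), then to Cpxm2 (distance 0.552) and Nlrc3 (distance 0.554). Casq1 was nearest to Ptprr (34, 52, 28 and 14 reads; distance 0.278), Lrp8 (40, 75, 24 and 13; distance 0.369) and Pp11r (52, 95, 57 and 28; distance 0.396), all with mutant 3 as the highest library. The neighbours of the 3 members did not overlap, but the unlike shapes of these members left little room for overlap.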

How the data were processed

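Right-ventricle RNA of 2 Ezh2-deficient and 2 wild-type mouse hearts was sequenced from polyadenylated RNA with duplex-specific nuclease treatment, per the labels' protocols. The authors used TopHat 1.2.0 and Cufflinks with mm9, per the submitters' processing notes. The sources used here name no counting rule, strand use or annotation. Per the file headers, the deposited table holds read counts per gene row, the authors' CPM, the authors' fold ratios of library pairs and the authors' p-values for them (test not given). The counts were the input. The CPM equalled reads over library totals, the ratios were quoted where named, and the p-values were not used.

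Tests used edgeR 4.0.16 in R 4.3.3 (quasi-likelihood, filterByExpr, TMM, no covariate, Benjamini-Hochberg over 16128 rows, two-sided, threshold 0.05) on all 4 libraries. The same code was tested on simulated data. Alternatives were DESeq2 1.42.0, limma-voom (limma 3.58.1), other scalings, filters, row sets and thresholds, and each library left out. Nothing names a litter or batch, so p-values measure the spread between these libraries. The members and gene lists were chosen with earlier results of these data known. The text names all members, the list genes of smallest p (up to 6), pair partners and the 3 nearest rows in shape; other genes, such as Stac3, Rapsn, Dok7, Musk, Chat, Myl1, Myh4, Mybpc2, Myl7 and the rows of the 5-fold bar, were named after their values were seen. Etv5 was not matched. Table starts count from 0 and are printed from 1.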

Additional observations from a re-analysis of the deposited data

How the results depend on the processing

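The count of members that passed was 0 and changed with the setting. It was 1 with DESeq2 (Sypl2), 2 with total-count scaling (Sypl2 and Atp2a1), 4 without a filter (Ryr1, Sypl2, Atp2a1 and Casq1) and 1 at an adjusted p under 0.10. With a library left out, a group holds a single library. The number of genes passing, which moved widely for members and for all rows, is not given for those fits. A library left alone in its group is assumed to vary like the other group. All rows called were 21, and 203 with DESeq2, 156 with total-count scaling, 317 without a filter, 69 at 0.10, 3 without X, Y, mitochondrial and abundant rows, and 63 to 3675 with a library left out. Triad partners called went from 0 to 2 with total-count scaling, 2 without a filter, and 0 to 11 with a library left out. Junction genes called stayed at 0 in every alternative that kept all 4 libraries. The median log2 fold change of the tested members, 0.49, was 0.18 with total-count scaling, which shifts the median of all rows to -0.28, and 0.075 to 0.66 with a library left out. Sypl2 kept its direction in all 14 alternatives and passed in 7; Atp2a1 passed in 5 and Casq1 in 4. The log2 fold change of Chrnb1 ran from -0.64 to 0.21 with a library left out, turning positive without wild type 2. Per base of transcript, an alternative chosen after seeing the data, the pair shares moved by less than the spread between libraries. With a library left out, a move beyond that spread was not possible with 2 libraries per group. Without mutant 1, the mutant minus wild-type difference in percent went from 0.547 to 0.0121 for Ryr1 and from 0.462 to 0.0173 for Atp2a1. The Cacna1s difference went from -0.123 to 0.18 without mutant 3. The Casq1 and Sypl2 differences stayed positive with any library left out. No paired analysis was possible because the groups share only replicate number 1. Depth limits Cacng1, Chrna1, Chrnd and Chrne, which had at most 12 reads in any library.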
